A study of Homo sapiens with 4 samples.

Results

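DDIT4 was followed in single cells of 2 established human cell lines together with the integrated stress response genes ATF4, DDIT3, TRIB3, CHAC1, ASNS, SESN2 and VLDLR and with the metabolic gene TXNIP. The list of 9 genes was drawn up with earlier results of these data known, and its rows were then taken by symbol (ATF4 ENSG00000128272, DDIT3 ENSG00000175197, TRIB3 ENSG00000101255, CHAC1 ENSG00000128965, ASNS ENSG00000070669, SESN2 ENSG00000130766, VLDLR ENSG00000147852, TXNIP ENSG00000265972), and all 9 were found among the 33540 features of the Ishikawa matrix and the 33538 features of the T-47D matrix. Ishikawa cells come from an endometrial adenocarcinoma and T-47D cells from a ductal carcinoma of the breast, and both respond to estrogen. Cultures kept beforehand in hormone-depleted medium received 17β-estradiol (E2), the main estrogen, at 10 nM for 2, 4 or 8 h, and the 0 h culture of each line received the vehicle DMSO. A lipid-anchored DNA tag marked the cells of each culture (MULTI-seq) before the 4 cultures of a line were mixed and captured as 1 droplet library. There was 1 culture per line and time point, so no value below has a replicate, no test was possible, and every interval covers counting error only. The intervals of CPM and of ratios also take each UMI as an independent draw. They are too narrow where the UMIs of a gene gather in few cells.

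The integrated stress response begins when kinases that sense lack of amino acids, unfolded protein in the endoplasmic reticulum, double-stranded RNA or mitochondrial damage phosphorylate the translation initiation factor eIF2. Most protein synthesis then slows, while the transcription factor ATF4 is made from its mRNA more efficiently and switches on genes for amino acid supply, for feedback and, under lasting stress, for cell death. Much of ATF4's control is therefore translational and is not seen in its mRNA. DDIT4, also called REDD1, is a target of this pathway and of glucocorticoids and hypoxia, and its protein restrains the growth kinase complex mTORC1.

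The values are unique molecular identifiers (UMIs), each marking 1 captured transcript end, summed over the kept cells of a culture and given per 1000000 UMIs of that pool (CPM). The 8 pools held 553 to 1525 cells and 12927799 to 33175309 UMIs, with medians of 19121.5 to 22576 UMIs per cell. The endometrial markers were all 10 at 10 CPM or more in Ishikawa, where the Müllerian factor PAX8 lay at 94.2 to 126 CPM, and the luminal breast markers were all 10 at that level in T-47D, where PAX8 had no UMI. The lists share KRT8 and KRT18, and 4 of the endometrial markers reached that level in T-47D and 5 of the luminal markers in Ishikawa. Summed markers of other cell types were low in every pool, with at most 30.4 CPM for fibroblasts, 2.53 for leukocytes and 1.44 for endothelium. The Ishikawa 0 h pool stood apart before filtering, since the limits on cells kept 38.2% of its called cells against 52.4% to 55.8% at later times, and its called cells had a median of 7.29% mitochondrial UMIs against 4.63% to 4.95%. Ishikawa cells also carried a GFP feature, which took 3.17% to 4.67% of the pool's UMIs and whose source no label or method explains. The libraries shared 80 barcodes, 5 of them among kept cells.

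The start sites of the members are shown first for 3 genes whose regulation by stress is well known. RefSeq windows of 300 bases, from 250 before to 50 after the start, matched 9 of 9 members with 15 windows (GRCh38.p14). Each sequence runs 5′ to 3′ on the strand of its gene. Capitals mark the CCAAT box (CCAAT, here as its reverse complement ATTGG) in DDIT4, which is shown because it alone passed the fold rule in T-47D. In the other sequences capitals mark only the composite C/EBP-ATF element TTGCATCA in CHAC1 and its relaxed form TGATGNAA in ASNS, the kind of element through which ATF4 and a C/EBP partner act. The stretches lie at chr10:72273774-72273923 on the plus strand (DDIT4), chr15:40953231-40953410 on the plus strand (CHAC1) and chr7:97872409-97872558 on the minus strand (ASNS).
DDIT4: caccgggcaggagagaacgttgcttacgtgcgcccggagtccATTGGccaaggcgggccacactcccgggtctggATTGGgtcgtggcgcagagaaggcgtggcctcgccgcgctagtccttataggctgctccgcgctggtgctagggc
CHAC1: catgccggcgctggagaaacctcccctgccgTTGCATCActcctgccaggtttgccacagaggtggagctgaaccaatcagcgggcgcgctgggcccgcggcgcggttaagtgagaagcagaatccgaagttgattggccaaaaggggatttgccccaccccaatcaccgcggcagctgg
ASNS: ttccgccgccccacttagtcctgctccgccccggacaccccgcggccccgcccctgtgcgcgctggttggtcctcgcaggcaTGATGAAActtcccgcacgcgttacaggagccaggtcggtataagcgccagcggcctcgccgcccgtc

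The CHAC1 element began 209 bases before the start site and the ASNS element 68 bases before it, while the DDIT4 boxes began 108 and 75 bases before it. Another ASNS window, at chr7:97872116-97872415, did not hold the element. On both strands, TTGCATCA was found in 0.866% of the 35116 windows of the table and TGATGNAA, which contains the reverse complement of TTGCATCA, in 3.62%. CCAAT was found in 34.6% of windows and, among the members, in those of DDIT4, SESN2, DDIT3 and CHAC1. For TXNIP it was in the window at chr1:145996530-145996829 but not in that at chr1:145995695-145995994. The E-box CACGTG (7.26% of windows) was in those of ATF4 and the AP-1 element TGANTCA (7.71%) in those of DDIT3. The cyclic AMP element TGACGTCA (1.85%) was in none of the 15 windows. A match of letters is not a binding site, and an absent match says nothing about a factor that acts elsewhere.

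DDIT4 fell in T-47D at 4 and 8 h of E2, and its 8 h level was under that of 4 h. In T-47D, DDIT4 (ENSG00000168209) had 49.8 CPM in vehicle-treated cells at 0 h (95% exact Poisson interval 47.4 to 52.3), 33.6 at 2 h (31.4 to 35.8), 28.5 at 4 h (26.6 to 30.5) and 20.7 at 8 h (18.3 to 23.4). No neighbouring pair of these intervals overlapped. Changes are given as log2((CPM + 1)/(CPM at 0 h + 1)), and the fold rule asked for 1.5-fold or more (0.585 on this scale) in a gene whose 4 pools averaged 10 CPM or more. DDIT4 had log2 fold changes of -0.56 at 2 h, short of the rule, and of -0.78 at 4 h and -1.22 at 8 h, past it. The plain ratio to 0 h at 8 h was 0.416 (95% interval 0.365 to 0.474). The steps also went down between the E2 pools, which do not involve the 0 h culture, with ratios of 0.849 from 2 to 4 h (0.772 to 0.934) and 0.727 from 4 to 8 h (0.632 to 0.836). Of the 7440 T-47D genes past the minimum, the number with a lower fold change than DDIT4 was 37 at 2 h, 6 at 4 h and 3 at the last time.

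In Ishikawa, DDIT4 had 72.4 CPM at 0 h (68.2 to 76.8), 55.6 at 2 h (53.01 to 58.4), 49.9 at 4 h (46.8 to 53.1) and 50.8 at 8 h (48.3 to 53.4). The 3 E2 pools lay below the 0 h pool, the 4 and 8 h pools had overlapping intervals, and no change passed the fold rule. The log2 fold changes were -0.37, -0.53 and -0.50 at 2, 4 and 8 h, and 211, 68 and 59 of 7885 genes lay lower. With every called cell in place of the kept cells, the values were -0.41, -0.59 and -0.59, and the last 2 were past the rule. Whether the lines differ in this change was not tested.

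**Figure D1:**
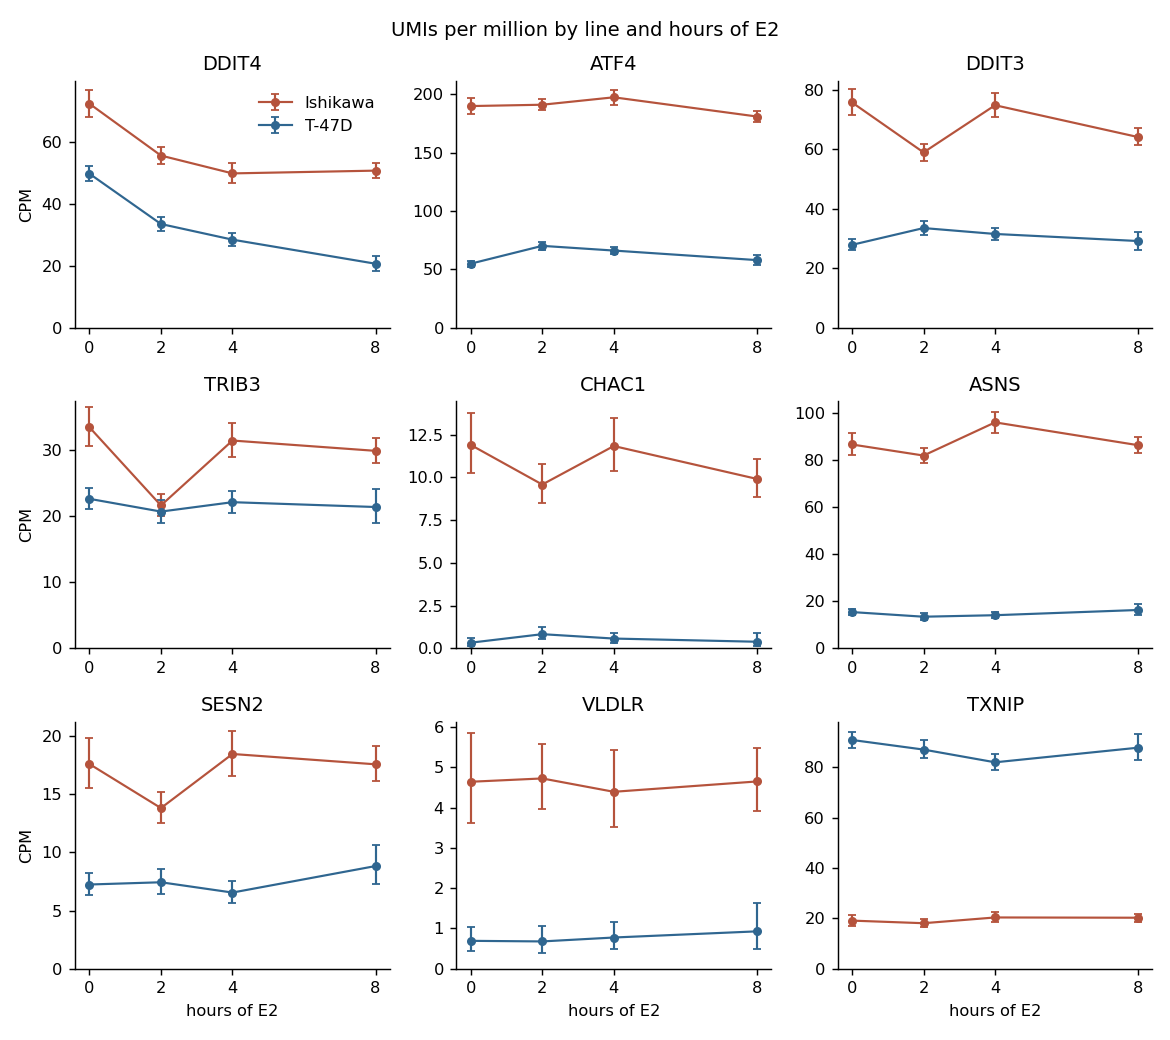
CPM (y axis, linear, from 0) of the 9 genes against hours of E2 (x axis) in Ishikawa (red) and T-47D (blue), with bars for 95% exact Poisson intervals, each point being 1 pool of cells. DDIT4 lay lower at each later time in T-47D, from 49.8 to 20.7 CPM, and of the 6 genes there with a mean of at least 10 CPM it alone was past the fold rule.

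Among the members, 8 in Ishikawa and 6 in T-47D reached the minimum of 10 CPM. In T-47D, none of the 6 passed the rule in the higher direction at 2, 4 or 8 h, where 1.22%, 1.33% and 2.34% of all genes did. In the lower direction none passed at 2 h (0.417% of all genes), and DDIT4 alone passed at 4 h (0.363%) and at 8 h (0.726%). In Ishikawa, none of the 8 passed in the higher direction at 2, 4 or 8 h (0.786%, 0.634% and 0.812% of all genes). TRIB3 alone passed in the lower direction at 2 h (0.659%), and none passed at 4 h (0.621%) or 8 h (0.469%). At a lower fold limit (0.322 on the log2 scale), DDIT4, DDIT3, TRIB3 and SESN2 were lower in Ishikawa at 2 h, where 4.1% of all genes were, and DDIT4 alone was at 4 h (4.63%) and 8 h (4.21%). In T-47D at 2 h, ATF4 was past that limit in the higher direction (3.41%) and DDIT4 in the lower direction (1.68%). The members' median log2 fold change was -0.31, 0.02 and -0.11 at 2, 4 and 8 h in Ishikawa, beside -0.01, -0.01 and 0.00 for all genes past the minimum. In T-47D it was -0.09, -0.08 and 0.01, beside 0.01, -0.01 and 0.01. The comparisons of a line share its 0 h pool, so they are not independent of each other.

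**Figure D2:**
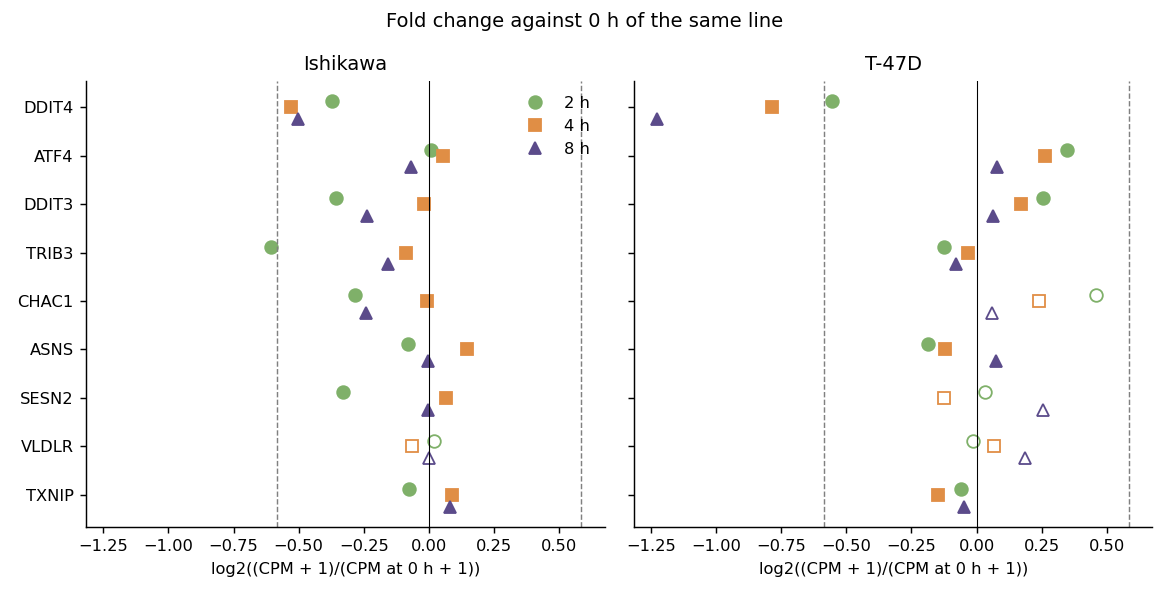
Log2 fold change against 0 h of the same line (x axis) for each gene (y axis) at 2 h (circles), 4 h (squares) and 8 h (triangles), with dashed lines at 1.5-fold and open symbols for genes with a mean under 10 CPM. DDIT4 in T-47D at 4 and 8 h and TRIB3 in Ishikawa at 2 h lie outside the dashed lines, at -0.78, -1.22 and -0.61.

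The lower level of DDIT4 in T-47D was seen in the share of cells with a UMI as well as in the mean. To compare pools at 1 depth, each kept cell was thinned at random to 14495 UMIs in T-47D and 12539 in Ishikawa, the 10th percentile of the line's kept cells, and shallower cells were left out. In T-47D, the share of thinned cells with a DDIT4 UMI was 45.5% at 0 h (exact Clopper-Pearson interval 42.8% to 48.3%), 34.0% at 2 h (31.2% to 36.9%), 27.9% at 4 h (25.5% to 30.5%) and 23.9% at 8 h (20.3% to 27.8%). Without thinning the shares were 55.1%, 41.3%, 37.0% and 31.1%. Cells with 2 to 4 UMIs went from 15.8% to 5.78% between 0 and 8 h and cells with 1 UMI from 28.6% to 17.9%. Cells with 5 or more were rare throughout, at 1.13% and 0.193%. In Ishikawa, the thinned shares with a UMI were 39.1% (35.4% to 42.8%), 36.4% (33.8% to 39.1%), 34.0% (30.8% to 37.3%) and 33.8% (31.2% to 36.4%), and the unthinned shares 48.2%, 45.4%, 41.6% and 43.2%. Neighbouring Ishikawa intervals overlapped, and the share with 1 UMI lay between 18.5% and 20.7% at all 4 times. Each library held 1 line, so no cell type that lacks these genes was there to measure free RNA.

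**Figure D3:**
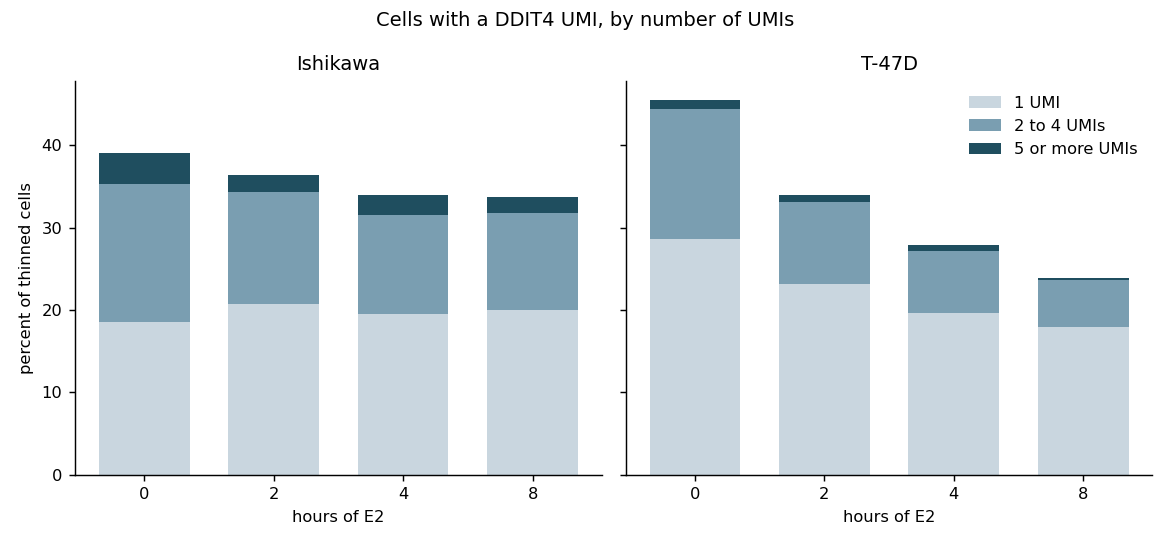
Percent of thinned cells (y axis, from 0) with 1, 2 to 4, and 5 or more DDIT4 UMIs at each time of E2 (x axis) in Ishikawa and T-47D, the rest of the cells having none. The whole bar shortens from 45.5% to 23.9% in T-47D and from 39.1% to 33.8% in Ishikawa.

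DDIT4 had a higher CPM in T-47D cells without a UMI of the division markers TOP2A and MKI67 than in cells with one, and at 8 h it was past 1.5-fold lower in both. Cells with no such UMI had 55.4 CPM at 0 h (52.3 to 58.6) and 23.7 at 8 h (20.2 to 27.5), a log2 fold change of -1.19. Cells with one had 39.0 CPM (35.5 to 42.8) and 17.1 (13.9 to 20.8), a log2 fold change of -1.15. Cells with a UMI of either marker made up 32.6%, 31.7%, 37.0% and 41.6% of T-47D cells at 0, 2, 4 and 8 h, and the change within each set was close to that of the whole pool. It was -1.32 in cells under the line's median mitochondrial share and -1.13 in the rest.

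Ishikawa cells were split by their load of GFP, since it varied from cell to cell. In cells with GFP under 1% of UMIs, DDIT4 had 81.1 CPM at 0 h (75.3 to 87.2), 56.4 at 2 h (53.1 to 59.9), 49.3 at 4 h (45.4 to 53.4) and 43.2 at 8 h (40.4 to 46.2). These cells gave log2 fold changes of -0.51, -0.71 and -0.89, of which the last 2 were past 1.5-fold. In cells with GFP of 1% or more, the levels were 60.0 CPM (54.1 to 66.3), 54.2 (49.8 to 58.8), 50.9 (45.9 to 56.3) and 63.9 (59.3 to 68.7), and the log2 fold changes -0.14, -0.23 and 0.09. The difference between these sets was not tested. The same sets differed in DDIT3, which had 53.1 CPM (0 h) in cells under 1% and 108 in the others. GFP itself takes part of the total of a cell, and with GFP, tdTomato and mitochondrial genes left out of the total the 8 h values of DDIT4 were 45.2 and 74.8 CPM.

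**Figure D4:**
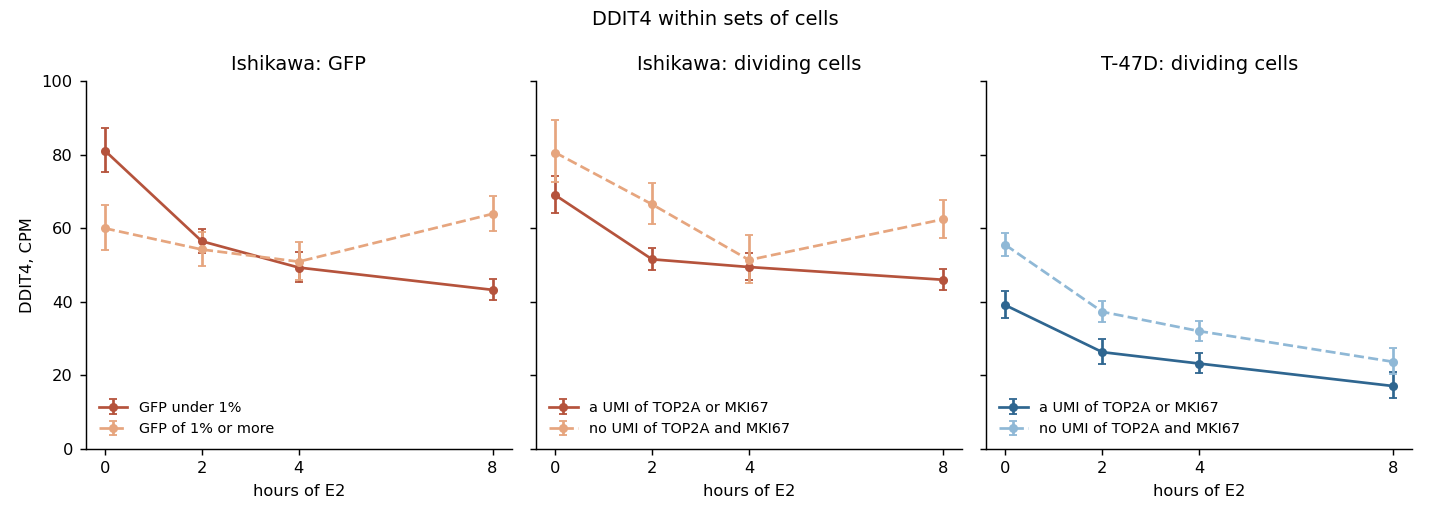
DDIT4 in CPM (y axis, from 0) against hours of E2 (x axis) for Ishikawa cells by GFP share, Ishikawa cells by TOP2A and MKI67, and T-47D cells by TOP2A and MKI67, with 95% exact Poisson intervals. The T-47D lines run side by side, while the Ishikawa lines by GFP end at 43.2 CPM (under 1%) and 63.9 CPM (1% or more).

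ATF4, the central transcription factor of the response, had 190 CPM at 0 h in Ishikawa (183 to 197), 191 at 2 h (186 to 196), 197 at 4 h (191 to 204) and 181 at 8 h (176 to 186). Its log2 fold changes there, 0.01, 0.06 and -0.07, were close to 0. In T-47D, ATF4 had 55.0 CPM (52.5 to 57.5), 70.2 (67.0 to 73.5), 66.2 (63.3 to 69.2) and 58.0 (53.9 to 62.3). The T-47D pools at 2 and 4 h lay above 0 h without reaching 1.5-fold, at log2 fold changes of 0.35 and 0.26, and the 8 h pool was back near 0 h at 0.08. At 2 h, 218 of 7440 genes had a higher value. The share of thinned T-47D cells with an ATF4 UMI was 52.4% at 0 h (49.7% to 55.2%), 59.7% at 2 h (56.7% to 62.6%), 59.5% at 4 h (56.7% to 62.2%) and 53.2% at 8 h (48.8% to 57.5%), and unthinned 64.5%, 71.4%, 71.4% and 68.0%. ATF4 and DDIT4 thus had changes of opposite sign against 0 h at 2 and 4 h in T-47D. At 8 h the ATF4 ratio to 0 h was 1.06 (0.968 to 1.15), an interval that includes no change. From 4 to 8 h both genes went down, ATF4 by a ratio of 0.877 (0.805 to 0.954) and DDIT4 by 0.727.

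DDIT3 encodes CHOP, the transcription factor that promotes cell death under lasting stress. In Ishikawa it had 75.7 CPM at 0 h (71.4 to 80.1), 58.9 at 2 h (56.2 to 61.7), 74.7 at 4 h (70.9 to 78.7) and 64.0 at 8 h (61.3 to 66.9). The 2 h pool was the lowest and the 4 h pool overlapped 0 h, with log2 fold changes of -0.36, -0.02 and -0.24. In T-47D, DDIT3 had 27.9 CPM (26.1 to 29.7), 33.5 (31.3 to 35.8), 31.5 (29.5 to 33.6) and 29.2 (26.3 to 32.3). Few cells held many of these UMIs, with up to 54 in 1 thinned T-47D cell at 2 h and up to 48 at 4 h. With the upper UMI limit at 1.5 times the median the log2 fold change at 2 h was 0.09 in place of 0.26, and in thinned cells that at 4 h was -0.12 in place of 0.17.

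TRIB3 encodes a pseudokinase that restrains ATF4 and the kinase AKT, and it was the only member past the fold rule in Ishikawa. It had 33.5 CPM at 0 h (30.7 to 36.5), 21.7 at 2 h (20.03 to 23.4), 31.5 at 4 h (29.1 to 34.1) and 29.9 at 8 h (28.0 to 31.9). The 2 h pool alone lay apart, at a log2 fold change of -0.61, and the step from 2 to 4 h went back up by a ratio of 1.45 (1.30 to 1.63). The call at 2 h rested on a value just past 0.585. Under 11 other settings the value ran from -0.73 to -0.24, and it stayed past 1.5-fold in 4 of them. It was -0.24 in cells with GFP under 1% and -0.93 in cells with 1% or more. In T-47D, TRIB3 had 22.7, 20.7, 22.2 and 21.4 CPM, and these 4 pools had overlapping intervals.

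SESN2 and CHAC1 also had their lowest Ishikawa value at 2 h. SESN2, which encodes a leucine sensor upstream of mTORC1, had 17.6 CPM at 0 h (15.5 to 19.8), 13.8 at 2 h (12.5 to 15.2), 18.4 at 4 h (16.6 to 20.5) and 17.6 at 8 h (16.1 to 19.1). CHAC1, which encodes an enzyme that breaks down glutathione, had 11.9 CPM (10.2 to 13.8), 9.58 (8.50 to 10.8), 11.8 (10.3 to 13.5) and 9.91 (8.83 to 11.1). Neither passed the rule at any time, and their log2 fold changes at 2 h were -0.33 and -0.29. From 2 to 4 h the ratios were 1.34 for SESN2 (1.16 to 1.54), 1.24 for CHAC1 (1.03 to 1.48) and 1.27 for DDIT3 (1.18 to 1.36). In thinned cells, the CHAC1 change at 2 h was only -0.07. PPP1R15A (GADD34), which directs the eIF2 phosphatase, and ATF3, a stress transcription factor, were past the rule at the same time, at -0.62 and -0.80. Of all genes, 0.659% were past it in the lower direction. ATF4's partners and downstream factors, ATF3 among them, had a 2 h median of -0.08, and CEBPB and CEBPD were higher, at 0.51 and 0.56. The groups of ATF4 targets described below had 2 h medians from -0.09 to 0.06. The Ishikawa 0 h pool is the one with the smallest share of called cells kept, and the part of this in the 2 h values was not tested.

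In T-47D, SESN2 and CHAC1 were below the minimum. SESN2 had 240, 197, 194 and 114 UMIs, which is 7.23, 7.43, 6.54 and 8.82 CPM, and its intervals at 0 h and 8 h overlapped (6.35 to 8.21 and 7.27 to 10.6). CHAC1 had 11, 22, 17 and 5 UMIs, in 10, 18, 17 and 5 cells. With so few UMIs the intervals of CHAC1 are wide, and its ratio to 0 h was 2.50 at 2 h (1.16 to 5.71) and 1.17 at 8 h (0.318 to 3.64).

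ASNS makes asparagine and is among the best known ATF4 targets. In Ishikawa it had 86.7 CPM at 0 h (82.1 to 91.5), 82.0 at 2 h (78.8 to 85.3), 96.1 at 4 h (91.8 to 101) and 86.4 at 8 h (83.2 to 89.7). In T-47D it had 15.4 CPM (14.1 to 16.8), 13.5 (12.1 to 14.9), 14.1 (12.8 to 15.5) and 16.3 (14.2 to 18.7). No ASNS change reached 0.2 on the log2 scale. The log2 fold changes ran from -0.08 to 0.15 in Ishikawa and from -0.18 to 0.08 in T-47D.

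VLDLR, a lipoprotein receptor that ATF4 can induce, was below the minimum in both lines. It had 71, 141, 85 and 144 UMIs in Ishikawa, which is 4.64, 4.72, 4.39 and 4.65 CPM, and 23, 18, 23 and 12 UMIs in T-47D. The Ishikawa pools were level within their intervals, with a ratio to 0 h at 8 h of 1.00 (0.749 to 1.35).

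TXNIP encodes a brake on glucose uptake and on thioredoxin. In T-47D it had 90.9 CPM at 0 h (87.7 to 94.2), 87.1 at 2 h (83.6 to 90.7), 82.1 at 4 h (78.8 to 85.4) and 87.9 at 8 h (82.8 to 93.1). In Ishikawa it had 19.1, 18.1, 20.4 and 20.3 CPM. The T-47D log2 fold change farthest from 0 was -0.15 at 4 h, and the Ishikawa intervals at 0 and 8 h overlapped (17.0 to 21.5 and 18.7 to 21.9).

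The lines differed more from each other before E2 than over time in most of these genes. At 0 h, ASNS was 5.62 times higher in Ishikawa (5.07 to 6.23), ATF4 3.45 times (3.26 to 3.66), DDIT3 2.71 times (2.49 to 2.96) and SESN2 2.43 times (2.03 to 2.90). CHAC1 was 35.9 times higher, with a wide interval of 19.6 to 73.1 that rests on 11 T-47D UMIs, and VLDLR 6.69 times (4.13 to 11.2). TRIB3 and DDIT4 were closest, at 1.48 times (1.32 to 1.66) and 1.45 times (1.35 to 1.57). TXNIP went the other way and was 4.75 times higher in T-47D (4.21 to 5.37). Each line was 1 library, so line and library cannot be told apart.

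The wider pathway was described with 14 gene lists, as counts past the fold rule of the members that reached the minimum, without a test. In each direction and time, 0.469% to 0.812% of all genes passed in Ishikawa and 0.363% to 2.34% in T-47D. At these shares most lists this short would have none past the rule, so having none is not a trait of a list. The kinases of eIF2 and their activators had none past the rule in either line, with 5 of 7 measured in Ishikawa, 6 of 7 in T-47D and medians between -0.05 and 0.15. For eIF2, its exchange factor eIF2B and its phosphatase, PPP1R15A in Ishikawa at 2 h was the only one of 10 measured there past the rule, and none of 9 was in T-47D. Among ATF4's partners and downstream factors, 7 of 8 were measured in each line. ATF3 was lower in Ishikawa at 2 h, at -0.80, and CEBPD, a C/EBP factor and possible ATF4 partner, was higher there at 8 h, at 0.70.

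Targets of ATF4 in amino acid supply are taken by function. Of 9 measured genes of amino acid synthesis and one-carbon metabolism in Ishikawa and 5 in T-47D, none passed the rule. Amino acid transporters had a median of 0.25, 0.51 and 0.36 at 2, 4 and 8 h in T-47D over 4 measured genes and of 0.02, 0.15 and 0.15 in Ishikawa over 7. SLC7A5, the leucine carrier LAT1, rose in both lines. It went from 76.0 CPM at 0 h to 148, 145 and 123 in T-47D, and from 89.2 to 122, 153 and 153 in Ishikawa, where it passed the rule at 4 and 8 h. Its partner chain SLC3A2 rose in T-47D at 4 h, from 324 to 515 CPM. All 12 aminoacyl-tRNA synthetases, which charge tRNAs, were measured in both lines. In T-47D their medians were 0.05, 0.19 and 0.23, and YARS (0.60 at 4 h) and IARS (0.63 at 8 h) passed the rule. In Ishikawa the medians were -0.02, 0.09 and 0.09, and none passed.

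Other ATF4 targets and the unfolded protein response held 2 large rises in T-47D. STC2, a secreted glycoprotein, went from 27.3 CPM at 0 h to 78.5, 95.5 and 105 (log2 1.49, 1.77 and 1.90), the only one of 6 measured genes of its list past the rule. XBP1, a transcription factor of the unfolded protein response that the estrogen list also holds, went from 356 to 843, 717 and 731 CPM. It was the only one of 15 measured chaperone and XBP1 or ATF6 branch genes past the rule in T-47D, and none of 15 was in Ishikawa. The median of that list was within 0.04 of 0 in T-47D.

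Genes of the mTORC1 pathway, which DDIT4 and SESN2 feed into, held 1 rise in both lines. DEPTOR, an mTOR inhibitor, went from 5.68 CPM to 9.64, 13.6 and 16.2 in Ishikawa (log2 0.67, 1.13 and 1.37) and from 9.19 to 12.3, 11.8 and 14.5 in T-47D, where it passed the rule at 8 h only (0.61). Its 0 h level was under 10 CPM in both lines, so it reached the minimum through its E2 pools. SESN3, a relative of SESN2, was lower in Ishikawa at 4 h (-0.61). The other genes of this list that were measured, of 11 in Ishikawa and 9 in T-47D, did not pass the rule.

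Lists of glucocorticoid receptor and hypoxia targets, for the other inducers of DDIT4 named above, were read beside it. Lists of p53 targets, of MondoA and ChREBP targets and of estrogen targets are given with them. Glucocorticoid receptor targets had a median of -0.24, -0.17 and -0.37 in T-47D over 4 measured genes of 11 and of -0.06, 0.12 and 0.07 in Ishikawa over 6. At 8 h the metallothionein MT2A was past the rule in T-47D (-0.86), and CEBPD, which this list also holds, was past it in the higher direction in Ishikawa (0.70). Hypoxia targets had medians of -0.05, -0.17 and -0.13 in T-47D over 6 genes, with NDRG1 lower at 8 h (-0.93) and the glucose carrier SLC2A1 higher at 2 h (0.71), and none of 7 was past the rule in Ishikawa. Among p53 targets, TP53INP1 was lower in T-47D at 4 and 8 h (-0.59 and -0.60), the only one of 7, and none of 7 was past it in Ishikawa. MondoA and ChREBP targets, the group known to contain TXNIP, had none past the rule in either line, with 4 and 3 measured. Their part in the change of DDIT4 was not tested. Estrogen targets, the check of the treatment, had 11, 9 and 10 of 12 measured genes higher at 2, 4 and 8 h in T-47D and 5, 3 and 2 of 7 in Ishikawa. Of all genes, 1.22%, 1.33% and 2.34% were higher at these times in T-47D and 0.786%, 0.634% and 0.812% in Ishikawa. In T-47D, CXCL12 went from 6.09 to 59.9 CPM and TFF1 from 4.88 to 32.6 by 8 h, and in Ishikawa TGFA went from 11.2 to 42.7. CXCL12 and TFF1 in T-47D, and RARA in Ishikawa (8.49 CPM at 0 h), were under 10 CPM before E2. They reached the minimum, a mean over 4 pools, through their E2 pools. The list was also chosen with earlier results known, so its counts are not an independent test.

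Genes with a time course most like that of DDIT4 were found by the distance of log2(CPM + 1) over the 8 pools, each line centred on its mean, among 6404 genes past the minimum in both lines. The closest were IL1R1 (distance 0.47), ZNF503 (0.49), TXNRD1 (0.50), MT1X (0.51) and PNRC1 (0.52), where a flat gene would lie at 0.98. IL1R1, the interleukin 1 receptor, was close to DDIT4 in T-47D, at 48.2, 30.3, 26.2 and 19.0 CPM, and level in Ishikawa, at 10.3, 12.3, 10.3 and 9.26. PNRC1, a nuclear receptor coactivator, also lay near DDIT4 in Ishikawa, with log2 fold changes of -0.40, -0.54 and -0.56. The 2 closest were C9orf3 and SEPT10 for ATF4, ACOT9 and GNG12 for DDIT3, KLF6 and ETAA1 for TRIB3, ZADH2 and SPTBN1 for ASNS, and PPP2R5A and GOLGA4 for TXNIP.

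Whether cells rich in 1 member were rich in others was read within each pool. The rank correlation between 2 members over thinned cells (Spearman's rho, a description with no p) had a median over the 36 pairs of 0.119, 0.0999, 0.0868 and 0.106 at 0, 2, 4 and 8 h in Ishikawa, over 676 to 1336 cells. In T-47D it was 0.00311, 0.00841, 0.00801 and 0.0211, over 519 to 1331 cells. The pair DDIT3 and TRIB3 had rho of 0.265, 0.174, 0.295 and 0.297 in Ishikawa and of -0.044, 0.012, 0.008 and 0.040 in T-47D. DDIT3 and SESN2 had 0.270, 0.199, 0.188 and 0.279 in Ishikawa, while the median rho over times was at most 0.0804 for any pair with TXNIP or VLDLR there. Cells of a pool share a library and a depth, and a low level holds rho near 0, which limits the comparison between lines for all members but TXNIP, since the others had lower levels in T-47D. In Ishikawa cells with GFP under 1%, the median over pairs was between 0.0721 and 0.1, and DDIT3 and TRIB3 had 0.257, 0.152, 0.285 and 0.239.

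**Figure D5:**
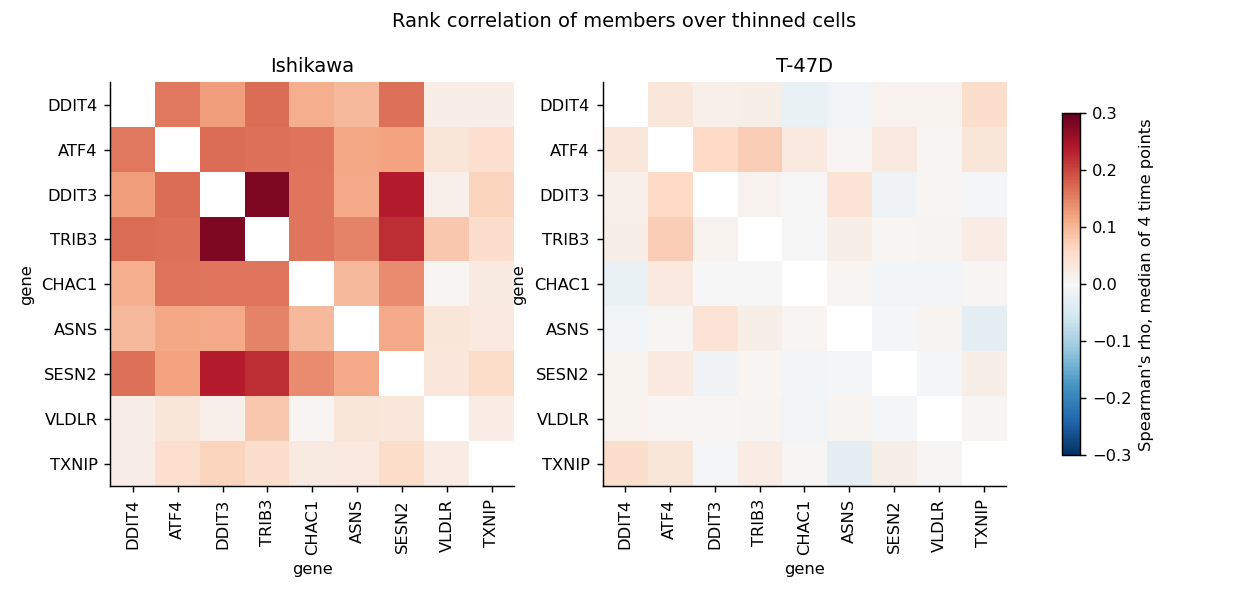
Spearman's rho between each pair of the 9 genes (both axes) over thinned cells, as the median of 4 time points, in Ishikawa and T-47D, on a colour scale from -0.3 (blue) to 0.3 (red). The block of DDIT4, ATF4, DDIT3, TRIB3, CHAC1, ASNS and SESN2 is red in Ishikawa, darkest for DDIT3 with TRIB3, and pale in T-47D.

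DDIT3 was spread unevenly over cells. Its Fano factor, the variance of thinned counts over their mean, was 5.40 to 6.98 in Ishikawa and 2.39 to 9.03 in T-47D, against 1.55 to 1.76 and 1.15 to 1.26 for ATF4. With a factor above 1, the Poisson intervals of CPM and the intervals of ratios given above are too narrow. In Ishikawa, the 164 thinned cells with 5 or more DDIT3 UMIs, of 4152, held 41.8% of its UMIs. They made up 35 of 676 cells at 0 h, 43 of 1305 at 2 h, 36 of 835 at 4 h and 50 of 1336 at 8 h. This limit was chosen after the values were seen and cuts a range, with 64 cells at 4 UMIs and 43 at 5. Of these 164 cells, 69.5% had a TRIB3 UMI (61.9% to 76.5%), 57.9% a SESN2 UMI (49.98% to 65.6%), 36.6% a CHAC1 UMI (29.2% to 44.5%) and 61.0% a DDIT4 UMI (53.1% to 68.5%). Among the 2705 cells with no DDIT3 UMI the shares were 15.5%, 10.6%, 8.47% and 32.5%. ATF4 had 95.1% against 83.4% and ASNS 71.3% against 53.9%. TXNIP and VLDLR had 23.8% against 14.8% and 9.15% against 5.62%. The DDIT3-rich cells had a median of 2.49% GFP against 0.39%, 3.85% mitochondrial UMIs against 4.08%, and 18644 total UMIs before thinning against 21653.

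In T-47D, only 26 of 4163 thinned cells had 5 or more DDIT3 UMIs. Of these, 69.2% had a TRIB3 UMI (48.2% to 85.7%) against 25.3% of the 3035 cells with none, and 88.5% an ATF4 UMI against 55.2% (69.8% to 97.6% and 53.4% to 56.97%). For DDIT4 the shares were 42.3% (23.4% to 63.1%) and 34.1%, for ASNS 30.8% (14.3% to 51.8%) and 16.7%, for SESN2 15.4% (4.36% to 34.9%) and 9.49%, and for TXNIP 13 of 26 cells (29.9% to 70.1%) and 51.7%. The intervals of these 4 genes overlapped between the sets. CHAC1 and VLDLR had a UMI in 0 of the 26 cells, an exact interval that reaches 13.2%, against 0.692% and 0.791%.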

How the data were processed

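The deposited matrices hold UMI counts per gene and barcode, which the authors made with Cell Ranger 3.1.0 on hg38 (per the submitters' processing notes), from 10x 3′ libraries, together with the time point called for each barcode. Cells with a single time point call were taken by the limits in the study's methods. In Ishikawa these were 8500 to 35000 UMIs, 2700 to 6000 detected genes and less than 7% of UMIs from mitochondrial genes. In T-47D they were 7500 to 40000, 1500 to 6000 and less than 20%. This kept 4613 of 9077 called Ishikawa barcodes and 4626 of 4626 in T-47D. Tag doublets (1906 and 1442) and barcodes with no call (4002 and 12120) were left out, pairs of cells with the same tag could not be, and no doublet caller was run. Nothing was fitted, since there was 1 culture per line and time. UMIs were summed per pool and scaled to the total with a pseudocount of 1. Intervals of 95% are exact Poisson (CPM), Clopper-Pearson (shares) and conditional binomial (plain ratios). The calculations were tested on simulated pools of Poisson counts with planted changes, which lack the spread over cells of the real counts. In a 3′ assay levels of different genes depend on capture, so genes were not ranked by level. The build of the promoter windows is a patch of that of the counts.

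The members and lists were chosen with earlier results of these data known. The text names the 9 members, for each list at most the 4 genes per line with the largest change among those past the fold rule, and the nearest genes by distance (5 for DDIT4 and 2 for each other member past the minimum in both lines). The class of DDIT3-rich cells was added after its values were seen. Alternatives covered scaling, pseudocount, cell limits, depth, cell weights, GFP, mitochondrial share, division markers, the minimum and the fold. Python 3.11.15, scipy 1.17.1, R 4.3.3 and edgeR 4.0.16 (for TMM factors only) were used.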

Additional observations from a re-analysis of the deposited data

How the results depend on the processing

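DDIT4 in T-47D kept its direction under all 10 other settings, with log2 fold changes of -0.59 to -0.49 at 2 h, -0.86 to -0.71 at 4 h and -1.32 to -1.09 at 8 h. Among these, every called cell only repeats the main result in T-47D, since the limits kept all 4626 called cells there. In Ishikawa it was lower under the 11 settings run, which keep the cells under 1% GFP but not the rest, where it was -0.14, -0.23 and 0.09 at 2, 4 and 8 h. It moved to -0.51, -0.71 and -0.89 at 2, 4 and 8 h in cells under 1% GFP, to -0.36 and -0.28 at 4 and 8 h under the median mitochondrial share, to -0.38 at 4 h in thinned cells and to -0.36 at 8 h in cells free of TOP2A and MKI67 UMIs. The count of members lower in Ishikawa at 2 h went from 1 to 0 with TMM factors, median-of-ratios factors, a pseudocount of 5, every called cell, thinned cells, cells under 1% GFP, cells under the median mitochondrial share, a minimum of 50 CPM and 2-fold, and to 4 (DDIT4, DDIT3, TRIB3 and SESN2) with a lower fold limit (log2 0.322), which 4.1% of all genes passed. At 4 h it went from 0 to 1 (DDIT4) with every called cell, the mean over cells, cells under 1% GFP, cells free of TOP2A and MKI67 UMIs and the lower fold limit, and at 8 h from 0 to 1 (DDIT4) with every called cell, cells under 1% GFP and the lower fold limit. In T-47D, 1 member (ATF4) was higher at 2 h with a lower fold limit. The count of lower members was 1 (DDIT4) at 2 h with the mean over cells, under the median mitochondrial share and with a lower fold limit, 0 at 4 h with a minimum of 50 CPM and with 2-fold, and 0 at 8 h with 50 CPM, the mean of DDIT4 being 33.1 CPM. The cause of these shifts was not tested beyond what the limits themselves set. No call among the 9 members changed sign, and the called genes of the lists were not rerun one by one. Scalings moved the median gene by at most 0.0384. No paired analysis was possible because each line and time point was 1 culture. Precision rests on UMI counts, which are few for CHAC1 and VLDLR in T-47D.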
